A study of Mus musculus with 10 samples.

Results

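The tubulin isotypes examined here are 10 genes, 4 for alpha tubulin (Tuba1a, Tuba1b, Tuba1c and Tuba4a) and 6 for beta tubulin (Tubb2a, Tubb2b, Tubb3, Tubb4b, Tubb5 and Tubb6). They were taken by gene name from a table of 55858 genes, and all 10 were found. RNA was sequenced from whole hearts of mice at postnatal day 10, with 5 mice per group. The series concerns Chmp4b, a subunit of the ESCRT-III complex that cuts membranes. All mice had the genotype MCM; Chmp4bF/F, so the controls carried every allele that the treated mice carried, and the labels do not spell out MCM. The cKO group was given tamoxifen, 0.1 mg/g under the skin on each of 2 days from postnatal day 0, and the control group was given corn oil. An effect of tamoxifen itself and an effect of the deletion cannot be told apart in these groups.

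Alpha and beta tubulin form the heterodimer from which microtubules are built. Each is encoded by a family of genes whose products, the isotypes, differ mainly in their tails, where most modifying enzymes act. In heart muscle cells microtubules carry cargo, position organelles and T-tubule proteins, and resist shortening when detyrosinated. Tubb3, the class III isotype, is best known from neurons, and Tuba4a is the alpha gene whose product lacks the encoded C-terminal tyrosine.

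Values are TPM (transcripts per 1000000 transcripts), which correct for gene length and have the same total in each library. Genes named mt-, which are encoded by mitochondria, took 35.5 to 41.5% of TPM in the cKO libraries and 50.0 to 59.4% in the controls. Genes with at least 1 TPM numbered 13578 to 14011 in cKO and 12354 to 12753 in control libraries. Values are therefore given on 2 scales, TPM as deposited and TPM relative to the median gene, which divides each library by a median-of-ratios size factor. A gene was called when limma, run on log2(value + 1) over 13282 genes, gave a Benjamini-Hochberg adjusted p under 0.05. Chmp4b stood at 29.5 ± 1.38 in cKO and 60.8 ± 6.51 in control hearts relative to the median gene (SD, n = 5 each, two-sided exact permutation p = 0.00794, the smallest that 252 splits allow). As deposited it stood at 38.2 ± 1.42 and 47.4 ± 8.61 TPM with overlapping groups (exact permutation p = 0.0476), a difference that 8 of the 10 tests without 1 library did not call. The cKO libraries 1, 5 and 7 held Xist, a transcript of female cells, at 47.6 to 65.9 TPM, while cKO 3, cKO 6 and the 5 controls held at most 0.12 TPM. Sex therefore differs between the groups, and it was examined only by leaving out those 3 libraries and by a fit with Ddx3y, a Y-linked gene, as covariate. In that fit Tubb3 differed by 3.04, Tuba1a by 1.39 and Tuba4a by -0.59 relative to the median gene, all called. In RNA from whole hearts, fewer cells of a type and less RNA per cell cannot be told apart.

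Most tubulin isotypes stood higher in cKO hearts, by very unequal amounts. Tubb3 was 35.1 times and Tuba1a 4.74 times the control TPM, Tubb2a, Tuba1c, Tubb4b, Tubb5 and Tubb2b were 2.25 to 3.18 times, and Tuba4a was 0.991 times. As deposited, 9 of the 10 were called higher and 0 lower, where 76.5% of all tested genes were called higher and 3.46% lower. On that scale 9 lay higher without overlap between groups and 0 lower, against 62.5% and 1.92% of all tested genes. Relative to the median gene, 7 were called higher (Tuba1a, Tuba1c, Tubb2a, Tubb2b, Tubb3, Tubb4b and Tubb5), 1 lower (Tuba4a) and 2 not called (Tuba1b and Tubb6), where 20.8% of all tested genes were called higher and 20.8% lower. There 7 lay higher and 1 lower without overlap, against 15.8% and 15.5%. The median log2 difference of the 10 genes was 1.34 as deposited and 0.60 relative to the median gene, against 0.63 and 0.01 over all tested genes. All 10 passed the filter of at least 1 TPM in 5 libraries, but Tubb3 passed it only through the 5 cKO libraries and so had to differ.

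**Figure D1:**
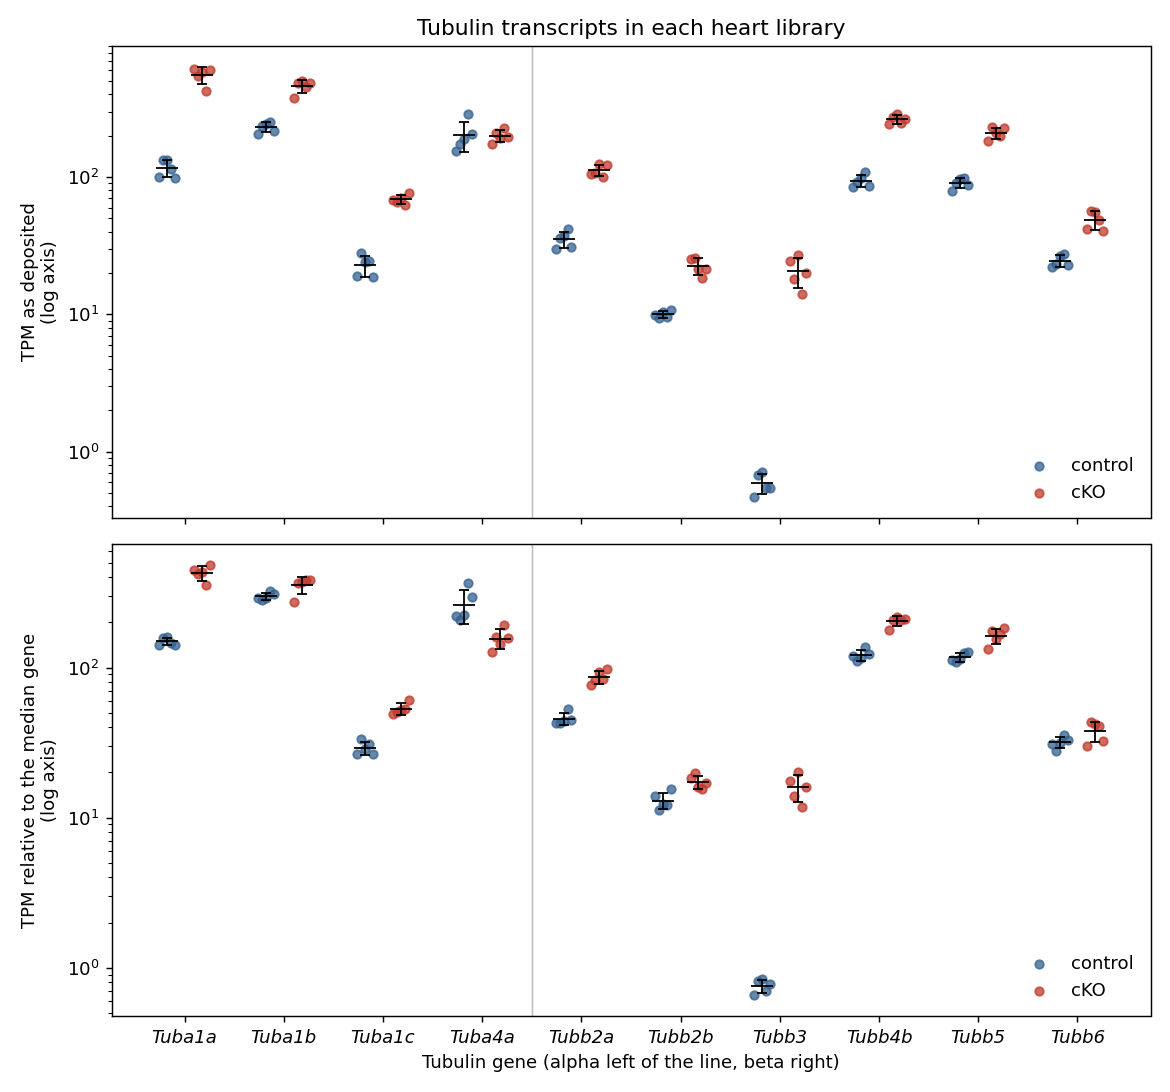
TPM of the 10 tubulin genes in each library, as deposited (top) and relative to the median gene (bottom), on log axes. Points are libraries, lines and bars are the mean and SD of 5 libraries per group, and Tubb3 lies below 1 TPM in the controls and between 14.1 and 27.1 TPM in cKO.

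The genes lie on several chromosomes (coordinates from GENCODE M21 on GRCm38). Tuba1a (chr15:98949837-98953703, minus strand), Tuba1b (chr15:98931425-98934565, minus) and Tuba1c (chr15:99029891-99038110, plus) form a cluster, and Tubb2a (chr13:34074274-34078007, minus) neighbours Tubb2b (chr13:34126748-34130466, minus). Tuba4a lies at chr1:75214228-75219865 (minus), Tubb3 at chr8:123411424-123422015 (plus), Tubb4b at chr2:25222160-25224702 (minus) and Tubb5 at chr17:35833921-35838306 (minus). Values are for whole genes, summed over exons.

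Promoter sequence is shown for Tubb3, the isotype with the largest difference, and for 3 isotypes that were called higher on both scales and whose sequences before the start lie outside annotated exons. The sequences are from RefSeq on GRCm38.p6, whose promoter table held 8 of the 10 genes, and each is read in the direction of transcription and ends at or just before the first annotated exon. They are chr8:123411303-123411423 (plus strand) for Tubb3, chr2:25224703-25224952 (minus) for Tubb4b, chr13:34078009-34078258 (minus) for Tubb2a and chr15:99029641-99029890 (plus) for Tuba1c. Capitals mark matches, on either strand, to 8 motifs that were searched. These were the CCAAT box, spelled as named, the TATA box as TATAAA, the GC box as GGGCGG, the E-box as CACGTG, the core of the antioxidant response element as TGACNNNGC, the AP-1 site as TGANTCA, the cAMP response element as TGACGTCA and the core of the heat shock element as GAANNTTC.
Tubb3: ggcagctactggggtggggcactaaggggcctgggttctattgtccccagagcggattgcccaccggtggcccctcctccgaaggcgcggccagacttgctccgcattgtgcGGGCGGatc
Tubb4b: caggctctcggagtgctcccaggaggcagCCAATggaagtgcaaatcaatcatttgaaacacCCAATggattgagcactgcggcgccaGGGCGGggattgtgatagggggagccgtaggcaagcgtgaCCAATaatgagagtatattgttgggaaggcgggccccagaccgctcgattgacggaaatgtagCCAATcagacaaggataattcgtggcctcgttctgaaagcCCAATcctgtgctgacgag
Tubb2a: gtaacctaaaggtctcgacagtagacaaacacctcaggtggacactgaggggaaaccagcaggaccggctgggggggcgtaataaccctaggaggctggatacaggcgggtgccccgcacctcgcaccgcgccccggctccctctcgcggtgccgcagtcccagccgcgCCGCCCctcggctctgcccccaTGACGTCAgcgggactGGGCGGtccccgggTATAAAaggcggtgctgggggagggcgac
Tuba1c: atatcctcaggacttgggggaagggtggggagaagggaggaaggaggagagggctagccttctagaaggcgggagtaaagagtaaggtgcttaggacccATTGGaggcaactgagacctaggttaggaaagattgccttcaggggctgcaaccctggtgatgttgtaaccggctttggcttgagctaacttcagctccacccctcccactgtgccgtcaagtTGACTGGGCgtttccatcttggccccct

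Over the full 250 bases before the start, Tubb4b held 5 matches to CCAAT, Tubb5 held 2, and Tuba1a, Tuba1c and Tubb3 held 1 each, while Tuba1b, Tuba4a and Tubb2a held 0. CCAAT matched in 33.8% of 32851 promoters of that length. TGACNNNGC matched in Tuba1a and Tuba1c and in 10.2% of promoters, and TGACGTCA matched in Tubb2a and in 1.55%. TATAAA, found in 12.4% of promoters, matched in Tubb2a alone among the 8 genes. GGGCGG, found in 32.7%, matched once in Tubb4b and Tuba1a and 2 times in Tubb2a, Tubb3, Tuba1b and Tuba4a. CACGTG, found in 6.02%, matched in Tubb5 alone, and TGANTCA (6.75%) and GAANNTTC (6.69%) matched in 0 of the 8. No match overlapped another. Of the 250 bases, 202 in Tuba1a, 175 in Tuba1b, 129 in Tubb3 and 5 in Tubb5 lay at or after an annotated exon's first base. The Tuba4a window began inside such an exon. Every match in Tuba1a and Tuba4a fell there, as did the CCAAT match of Tubb3. So did the GGGCGG matches nearest the start in Tubb3 and Tuba1b. These matches are letters in a window and not measured binding.

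Among the alpha tubulins, Tuba1a, the main alpha isotype of the developing nervous system, changed most. It stood at 613, 547, 579, 421 and 599 TPM in cKO libraries 1, 3, 5, 6 and 7 and at 101, 133, 134, 115 and 99.2 TPM in control libraries 4, 6, 8, 9 and 13. Every cKO library thus lay far above the highest control. The log2 difference was 2.23 as deposited (limma adjusted p = 2.88e-08) and 1.50 ± 0.08 (SE) relative to the median gene (adjusted p = 2.09e-07 in limma). In the order of all 13282 differences, from the largest rise down, Tuba1a was 179 relative to the median gene.

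Tuba1b, a broadly expressed alpha isotype, stood at 379, 482, 497, 456 and 483 TPM in the same cKO libraries and at 207, 236, 245, 253 and 216 TPM in the controls. The groups did not overlap as deposited, and the log2 difference was 0.98 (limma adjusted p = 1.97e-06). Relative to the median gene they overlapped, because cKO 1 (275) lay below all 5 controls (281 to 322), and the difference of 0.24 ± 0.09 was not called (limma adjusted p = 0.0565). Without cKO 1 that difference was 0.34 and was called (limma adjusted p = 0.00129).

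Tuba1c, a close relative of both, stood at 62.9 to 76.6 TPM in cKO and 18.6 to 27.9 TPM in control hearts. Its log2 difference was 1.57 as deposited and 0.85 ± 0.08 relative to the median gene (adjusted p = 8.52e-06 in limma), and the groups did not overlap on either scale.

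Tuba4a was not higher in cKO on either scale. It stood at 175, 210, 193, 229 and 196 TPM in cKO and at 156, 175, 188, 287 and 204 TPM in the controls. The groups overlapped throughout as deposited, with a log2 difference of 0.01 (limma adjusted p = 0.936). Relative to the median gene, cKO libraries lay at 127 to 191 and controls at 208 to 366 without overlap, and Tuba4a fell by 0.73 ± 0.16 (limma adjusted p = 0.00337). Without the 3 cKO libraries that held Xist, the difference was -0.54 and was not called (limma adjusted p = 0.116). Control 9, the highest control library, gave Tuba4a the widest spread of any isotype in the controls, with a coefficient of variation of 25.6% relative to the median gene.

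Tuba1a, Tuba1b and Tuba1c share sequence, so their separation is uncertain. Of all 75-base stretches of their GENCODE transcripts, 70.4%, 70.0% and 48.9% also occur in transcripts of other genes, and how reads with several matches were counted is not given in the sources used here. Of the exonic bases of Tuba4a, 37.3% overlap Stk16 on the other strand, which stood at 50.8 TPM in cKO and 41.3 TPM in control hearts. Whether counting used strand is not given either, so reads of the pair cannot be told apart. Gm49450 overlaps 26.2% of the exonic bases of Tuba1a and 22.7% of those of Tuba1b on the same strand. It stood at 2.62 TPM in cKO and 0.458 TPM in control hearts, and strand could not separate its reads from theirs.

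Among the beta tubulins, Tubb3 differed most. It stood at 24.4, 18.2, 27.1, 14.1 and 19.9 TPM in cKO libraries 1, 3, 5, 6 and 7 and at 0.470, 0.681, 0.709, 0.548 and 0.543 TPM in control libraries 4, 6, 8, 9 and 13. All 5 controls lay under 1 TPM and all 5 cKO libraries above 14. The log2 difference was 3.74 as deposited (limma adjusted p = 2.21e-09) and 3.24 ± 0.12 relative to the median gene (adjusted p = 1.76e-08 in limma), both understated by the pseudocount of 1. Tubb3 was 17 in the order of all 13282 rises relative to the median gene. Because it passed the filter through the cKO libraries alone, it had to differ, and its p-values and place in that order only describe it. Within the cKO group the 2 libraries without Xist, cKO 3 and cKO 6, were the lowest, and with only those 2 the difference was 2.89 (limma adjusted p = 8.58e-06). No 75-base stretch of Tubb3 occurs in another gene's transcripts, 0 of 1867.

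Tubb2a, found at high levels in neurons, stood at 106, 108, 124, 99.6 and 123 TPM in cKO and at 30.2, 36.0, 37.2, 41.6 and 31.1 TPM in the controls. It rose by 0.92 ± 0.08 relative to the median gene (adjusted p = 6.02e-06 in limma) and by 1.65 as deposited. Its neighbour Tubb2b stood at 18.5 to 25.8 TPM in cKO and 9.47 to 10.7 TPM in control hearts, with log2 differences of 1.09 as deposited and 0.39 ± 0.09 relative to the median gene (adjusted p = 0.00564 in limma). Neither gene overlapped between groups on either scale, but for Tubb2b relative to the median gene the groups nearly touched. Its lowest cKO value there was 15.48 and its highest control 15.41. Tubb2b lost its call on that scale without the 3 cKO libraries that held Xist (0.41, limma adjusted p = 0.0672). Tubb2a and Tubb2b share 618 stretches of 75 bases, and 43.2% of those of Tubb2a occur in another gene, so their separation is uncertain too.

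Tubb4b, a broadly expressed isotype, was the most abundant beta tubulin in both groups. It stood at 245, 272, 289.9, 247 and 265 TPM in cKO and at 85.3, 92.6, 98.0, 108 and 86.1 TPM in the controls. It rose by 0.74 ± 0.08 relative to the median gene (adjusted p = 1.38e-05 in limma) and by 1.48 as deposited, with no overlap on either scale. Of its 75-base stretches, 29.9% occur in other genes, mainly its pseudogenes.

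Tubb5, the main isotype of many dividing cells, stood at 183 to 230.0 TPM in cKO and 79.7 to 98.0 TPM in control hearts. It rose by 0.46 ± 0.09 relative to the median gene (adjusted p = 0.00123 in limma) and by 1.20 as deposited. The cycling-cell markers (Mki67, Top2a and others) gave 0 called genes of 10 relative to the median gene, in limma, and 1 lower at an unadjusted p under 0.05. Over all tested genes, 20.8% were called in each direction on that scale. As deposited 8 of the 10 were called higher and 0 lower, where 76.5% of all tested genes were called higher and 3.46% lower. The 10 markers summed to 88.9 to 176 TPM in cKO and 87.1 to 111 TPM in control hearts. Tubb6, the class V isotype, stood at 40.7 to 57.0 TPM in cKO and 22.0 to 27.7 TPM in control hearts. Its log2 difference was 0.95 as deposited (limma adjusted p = 9.58e-06), and at 0.23 ± 0.11 it was not called relative to the median gene, where the groups overlapped (limma adjusted p = 0.108). Without cKO 1 it was called (0.31, limma adjusted p = 0.0280), and likewise without the 3 libraries that held Xist (0.40, limma adjusted p = 0.0189).

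**Figure D2:**
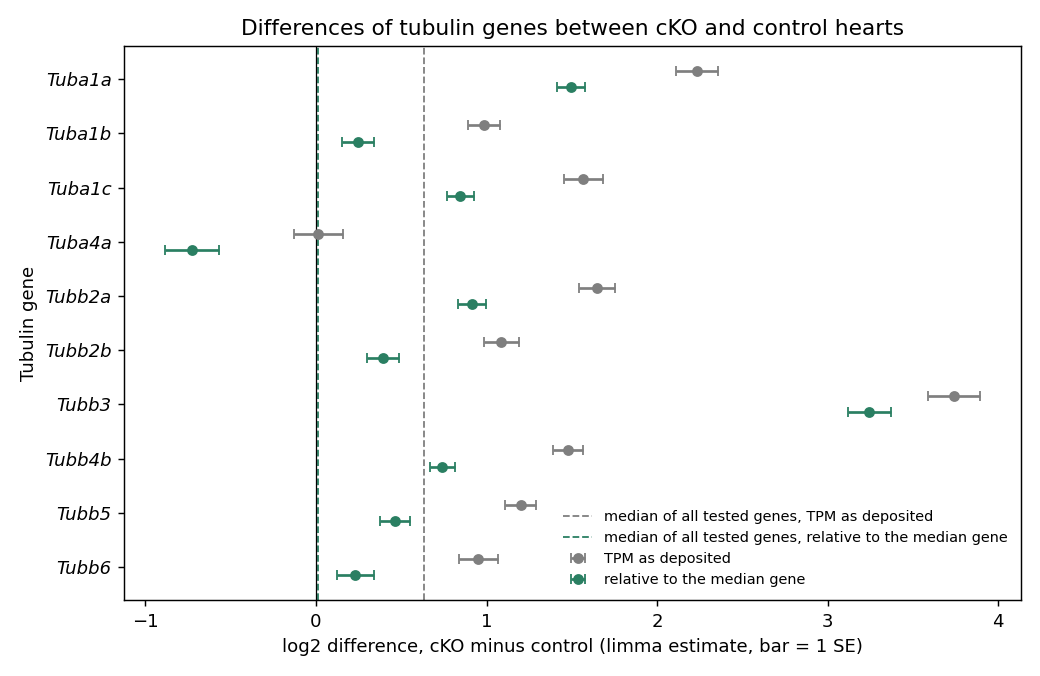
Limma log2 differences, cKO minus control, of the 10 tubulin genes on both scales, with bars of 1 SE and dashed lines at the median of all tested genes. Relative to the median gene the differences run from -0.73 for Tuba4a to 3.24 for Tubb3, and Tuba1b and Tubb6 lie closest to that median.

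A gene's share of the alpha or beta sum does not depend on how a library is scaled. Summed alpha tubulin was 1280.4 ± 77.2 TPM in cKO and 573 ± 72.5 TPM in control hearts, 2.24 times as much as deposited and 1.34 times relative to the median gene. Summed beta tubulin was 677 ± 48.1 and 255 ± 23.1 TPM, 2.66 times as deposited and 1.59 times relative to the median gene. The alpha sum was 1.89 ± 0.0621 times the beta sum in cKO (1.84 to 1.97) and 2.24 ± 0.0947 times in control hearts (2.12 to 2.38). Both families together made up 0.307 to 0.342% of TPM outside the mt- genes in cKO and 0.165 to 0.215% in control hearts. These sums hold the 4 alpha and 6 beta isotypes only. They leave out Tuba8, an alpha tubulin that stood at 11.4 TPM in cKO and 29.7 TPM in control hearts. The sums are given as a description, without a test.

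The alpha gene with the largest mean share was Tuba1b in control and Tuba1a in cKO hearts. Tuba1a made up 49.7, 41.9, 43.2, 36.0 and 44.3% in cKO libraries 1, 3, 5, 6 and 7, and 20.9, 23.3, 22.7, 16.95 and 18.4% in control libraries 4, 6, 8, 9 and 13. Its mean share was 43.0 ± 4.89% against 20.4 ± 2.703% (two-sided exact permutation p = 0.00794, n = 5 each). Tuba4a moved the other way, with 14.1, 16.1, 14.4, 19.6 and 14.4% in cKO and 32.3, 30.6, 31.8, 42.3 and 38.0% in the controls. Its mean share fell from 35.0 ± 4.96% to 15.7 ± 2.28% (exact permutation p = 0.00794). Tuba1c, the smallest share among the alpha genes in this sum, took 5.37 ± 0.224% in cKO and 3.98 ± 0.563% in control hearts (exact permutation p = 0.00794).

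Tuba1b held 35.9 ± 3.14% of the alpha sum in cKO and 40.6 ± 2.13% in control hearts, with overlapping groups (exact permutation p = 0.0159). That difference was not past the threshold without the 3 cKO libraries that held Xist (-2.59 percentage points, exact permutation p = 0.190), nor when every alpha tubulin gene entered the sum (-3.02, exact permutation p = 0.103). With few cKO libraries left, even the share of Tuba1a, without overlap between groups, had an exact permutation p of only 0.0476 without those 3. With Tuba1a, Tuba1b and Tuba1c merged, the merged share was 19.3 percentage points higher in cKO (exact permutation p = 0.00794), which by construction equals the fall of Tuba4a. Merging sets aside only the sequence that these genes share with each other. Each of them also shares stretches with genes outside the merged set, so the merged share remains uncertain in that respect. In single libraries Tuba1a was 1.84 to 3.51 times Tuba4a in cKO and 0.401 to 0.760 times in the controls.

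Within the beta sum the 6 genes had the same order of mean share in both groups, and 5 of the 6 shares passed the threshold. Tubb4b took 38.9 ± 0.797% in cKO and 36.9 ± 0.804% in control hearts, Tubb2a 16.5 ± 0.990% and 13.8 ± 0.654%, and each was higher in cKO (exact permutation p = 0.00794 for each). As centred log2 ratios, which weight the 6 genes equally, both were lower in cKO, at -0.26 for Tubb2a and -0.45 for Tubb4b (exact permutation p = 0.00794 for each). Tubb3 stood 3.18 higher in cKO as a centred log2 ratio. By construction that rise lowers the other beta genes, so these signs alone do not show a fall of Tubb2a or Tubb4b. Tubb5 took 31.0 ± 1.86% against 35.6 ± 0.926%, and Tubb6 7.18 ± 0.915% against 9.62 ± 0.231%, both lower in cKO (exact permutation p = 0.00794 for each). Tubb3 made up 3.89, 2.56, 3.73, 2.25 and 2.85% in cKO libraries 1, 3, 5, 6 and 7, and 0.192 to 0.269% in the controls (exact permutation p = 0.00794). Tubb3 was the smallest mean share of the beta sum in both groups. The share of Tubb2b was 3.34 ± 0.499% in cKO and 3.95 ± 0.472% in control hearts, which overlapped (exact permutation p = 0.0794). Without cKO 1 the difference of -0.80 percentage points passed the threshold (exact permutation p = 0.0397). With all libraries the centred log2 ratio of Tubb2b was -0.78 (exact permutation p = 0.00794), which the rise of Tubb3 also lowers by construction. These p-values are unadjusted, 10 shares were compared, and shares of 1 sum are not independent of each other.

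**Figure D3:**
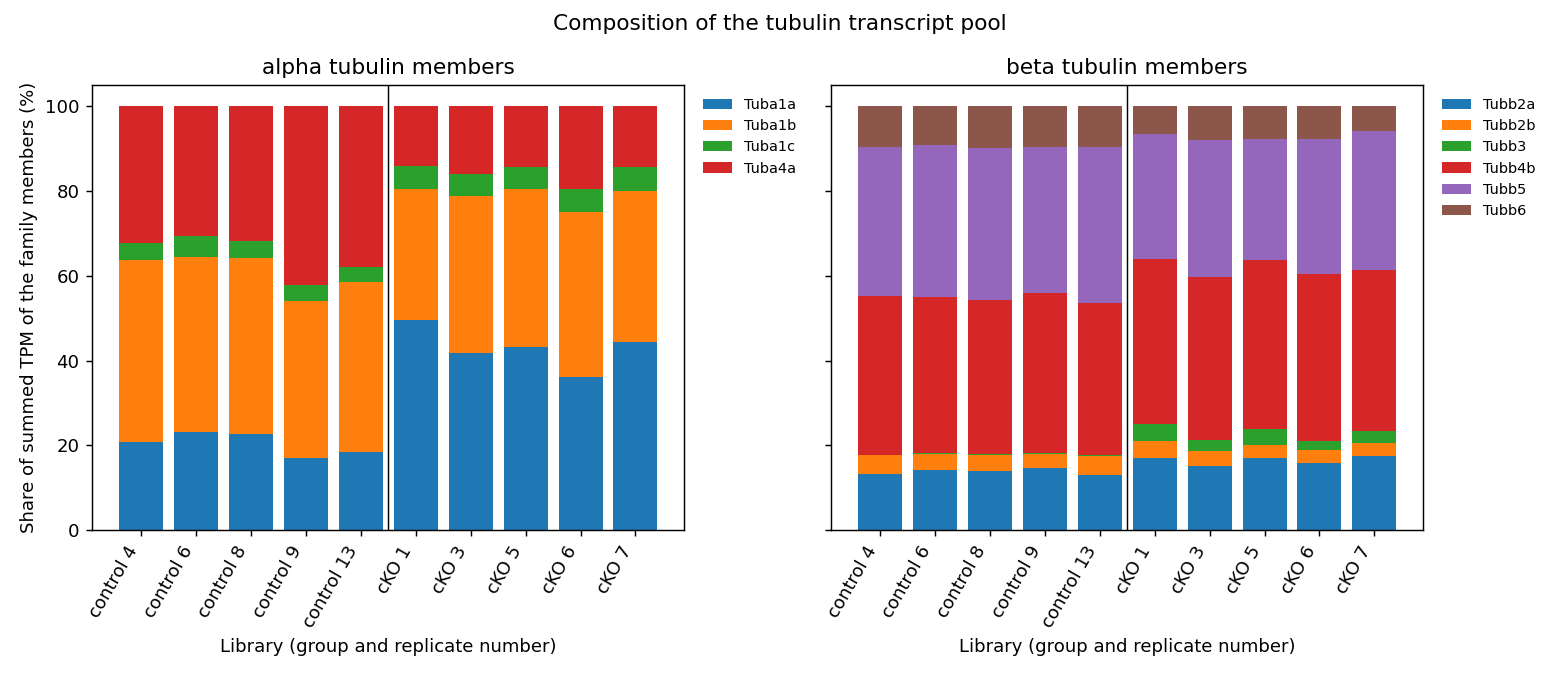
Share of each gene, in percent, in the summed TPM of the 4 alpha genes (left) and the 6 beta genes (right), with 1 bar per library. Tuba1a grows from 16.95 to 23.3% in the controls to 36.0 to 49.7% in cKO while Tuba4a shrinks from 30.6 to 42.3% to 14.1 to 19.6%, and the beta bars differ less.

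The order of mean TPM in the controls, from the top, was Tuba1b, Tuba4a, Tuba1a, Tubb4b, Tubb5, Tubb2a, Tubb6, Tuba1c, Tubb2b and Tubb3. In this order the neighbours Tuba1b and Tuba4a, Tuba1a and Tubb4b, Tubb4b and Tubb5, and Tubb6 and Tuba1c had overlapping ranges. In cKO the order was Tuba1a, Tuba1b, Tubb4b, Tubb5, Tuba4a, Tubb2a, Tuba1c, Tubb6, Tubb2b and Tubb3. There Tuba1a and Tuba1b, Tubb5 and Tuba4a, and Tubb2b and Tubb3 overlapped, with Tuba1a above Tuba1b in 4 of 5 libraries. Tuba4a thus moved from the second place to the fifth.

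The genes whose pattern over the 10 libraries was most like that of Tubb3 were Cyp51, Anxa4, Mllt11, Efhd2 and Tspan17. They had the highest Pearson correlations among 8740 tested genes with a mean of at least 5 TPM, on log2(value + 1) relative to the median gene. The correlation was 0.999 for Cyp51, a sterol demethylase of cholesterol synthesis, which stood at 25.8 TPM in cKO and 3.93 TPM in control hearts. It was 0.998 for Anxa4, a calcium-dependent membrane-binding annexin (57.0 and 10.8 TPM), and 0.998 for Mllt11 (78.9 and 4.84 TPM). It was 0.997 for both Efhd2, a calcium-binding protein of the actin cytoskeleton (112 and 8.08 TPM), and the tetraspanin Tspan17 (36.2 and 3.13 TPM). The points share the same 10 libraries and the same difference between groups, so the values describe likeness only.

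Because Tubb3 and Tubb2a are abundant in neurons, markers of neurons and Schwann cells were read beside them. Of the 12 such markers reported here, 2 passed the filter, and relative to the median gene 1 was called higher (Uchl1, 315 TPM in cKO and 17.05 TPM in control hearts) and 1 lower (Stmn2, log2 difference -0.54). Over all tested genes, 20.8% were called in each direction on that scale. Without Uchl1, the 11 others summed to 3.15 to 5.07 TPM in cKO and 3.24 to 4.69 TPM in control libraries. Chrna3 was listed at 0 in all 10 libraries, Snap25 reached at most 0.0389 TPM and Elavl4 0.181 TPM. Scaled to the median gene, the 11 summed to 2.64 to 4.05 in cKO and 4.33 to 6.40 in the controls.

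Markers of other cells moved with the groups. They are set against 20.8% of all tested genes called in each direction relative to the median gene. Relative to the median gene, 10 of 10 cardiomyocyte markers were called lower, with a median log2 difference of -0.92, and their summed TPM was 36010 to 39968 in cKO and 36147 to 44639 in the controls. All 8 fibroblast markers were called higher (median 0.62), with sums of 2329 to 2977 TPM in cKO and 874 to 1302 TPM in control hearts. All 9 tested macrophage markers of 10 were called higher (median 1.54), with sums of 283 to 392.4 and 45.5 to 60.1 TPM. Of 9 endothelial markers 8 were called lower and 1 not called (median -0.55), with sums of 428 to 515 and 403 to 509 TPM. Of 7 smooth muscle and pericyte markers 1 was called higher, 3 lower and 3 not called (median -0.28), with sums of 876 to 1277 and 482 to 596 TPM. As deposited the calls were 0 higher and 3 lower of 10 for cardiomyocytes (1 higher at an unadjusted p under 0.05 in limma), 1 higher and 0 lower of 9 for endothelial cells and 4 higher and 0 lower of 7 for smooth muscle and pericytes. The fibroblast and macrophage markers were all called higher on that scale too, 8 of 8 and 9 of 9. On that scale 76.5% of all tested genes were called higher and 3.46% lower. No cardiomyocyte marker was at 0 in any library. The part of these cell types in the tubulin differences was not tested.

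Of 10 further tubulin genes, 5 passed the filter, and relative to the median gene limma called 0 higher (also 0 at an unadjusted p under 0.05) and 3 lower. There 20.8% of all tested genes were called in each direction. As deposited 2 were called higher, 1 lower and 2 not called, where 76.5% of all tested genes were called higher and 3.46% lower. Tuba8, an alpha tubulin found in heart, skeletal muscle and testis, stood at 8.50, 11.8, 13.6, 17.2 and 5.70 TPM in cKO libraries 1, 3, 5, 6 and 7 and at 25.3 to 38.6 TPM in the controls. It fell by 1.38 as deposited (limma adjusted p = 0.000111) and by 2.07 ± 0.24 relative to the median gene (adjusted p = 3.24e-05 in limma), with no overlap on either scale. The other genes called relative to the median gene were Tubb4a (-0.46, limma adjusted p = 0.0219) and Tube1 (-0.33, limma adjusted p = 0.0393). Both were rare, not called as deposited, and not called in several other settings. Tubg1, the gamma tubulin that seeds microtubules, stood at -0.16 relative to the median gene (adjusted p = 0.328 in limma). As deposited Tubg1 was called higher (0.53, limma adjusted p = 0.00146).

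Tubulin folds through prefoldin and the CCT chaperonin and is then joined into dimers by the cofactors Tbca to Tbce. Of 7 cofactor genes 4 rose relative to the median gene, 0 fell (also 0 in limma at an unadjusted p under 0.05) and 3 were not called, with a median log2 difference of 0.44, where 20.8% of all tested genes were called higher. Tbcb, which binds alpha tubulin, stood at 46.4 ± 2.78 TPM in cKO and 18.3 ± 3.61 TPM in control hearts and rose by 0.60 ± 0.11 (limma adjusted p = 0.00105). Tbce rose by 0.52, Tbcd by 0.47 and Tbca by 0.44 (limma adjusted p = 0.00332, 0.00655 and 0.00855), and these 3 were not called without the 3 cKO libraries that held Xist. Of 14 chaperonin and prefoldin genes 7 rose, 0 fell (also 0 in limma at an unadjusted p under 0.05) and 7 were not called (median 0.21). The 7 that rose were CCT subunits, led by Cct3 at 122 ± 11.8 TPM against 46.4 ± 5.05 TPM (0.65 ± 0.05, limma adjusted p = 3.52e-06), followed by Cct4 (0.32), with Cct5 (0.28) and Cct7 (0.24) among the rest. As deposited all 7 cofactors and all 14 chaperonin and prefoldin genes were called higher, as were 76.5% of all tested genes.

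Enzymes that modify tubulin are given relative to the median gene first, where 20.8% of all tested genes were called higher and 20.8% lower. Of the 4 measured genes of the tyrosination cycle, 2 were called lower on that scale and 2 not called. As deposited 3 were called higher, 0 lower and 1 not called, where 76.5% of all tested genes were called higher and 3.46% lower. Vash1, a detyrosinating peptidase, stood at 10.2 TPM in cKO and 10.04 TPM in control hearts and at -0.66 ± 0.12 relative to the median gene (adjusted p = 0.000833 in limma). Ttl, the ligase that puts the tyrosine back, was at 6.39 and 5.22 TPM, which was called higher as deposited (0.25, limma adjusted p = 0.0336, lost in several other settings) and lower relative to the median gene (-0.38, adjusted p = 0.00183 in limma). Vash2 (0.28) and Svbp (0.22), the latter the partner of both vasohibins, were not called (limma adjusted p = 0.0824 and 0.166).

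Of the 3 acetylation enzymes, the acetylase Atat1 (0.34, limma adjusted p = 0.0383) and the deacetylase Sirt2 (0.29, limma adjusted p = 0.00970) were called higher relative to the median gene and the deacetylase Hdac6 (0.09, limma adjusted p = 0.454) was not called, and as deposited all 3 were called higher. Without the 3 cKO libraries that held Xist neither was called. Among 17 glutamylation and glycylation enzymes, 7 passed the filter, of which 1 was called higher and 2 lower relative to the median gene, and 4 higher and 1 lower as deposited. The shares over all tested genes, for these and the acetylation enzymes, were 20.8% in each direction relative to the median gene. As deposited they were 76.5% higher and 3.46% lower. Ttll7, a polyglutamylase that acts mainly on beta tubulin, stood at 6.87 ± 1.81 TPM in cKO and 0.632 ± 0.102 TPM in control hearts and rose by 1.76 ± 0.14 (limma adjusted p = 2.63e-06), having passed the filter through the cKO libraries alone. Ttll1, the catalytic subunit of another polyglutamylase complex, stood at 7.45 ± 0.475 TPM and 11.04 ± 1.32 TPM and fell by 1.17 ± 0.07 (limma adjusted p = 4.21e-07). The deglutamylase Agtpbp1 was at -0.77 relative to the median gene (adjusted p = 0.000999 in limma) and Agbl5 at -0.29 (limma adjusted p = 0.0524). Ttc5 and Scaper, which take part in the decay of tubulin mRNA when free tubulin is in excess, stood at -0.20 (limma adjusted p = 0.0341, lost in several other settings) and -0.05 (limma adjusted p = 0.581) relative to the median gene. As deposited both were called higher, at 0.49 and 0.54 (limma adjusted p = 0.000866 and 0.000300).

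**Figure D4:**
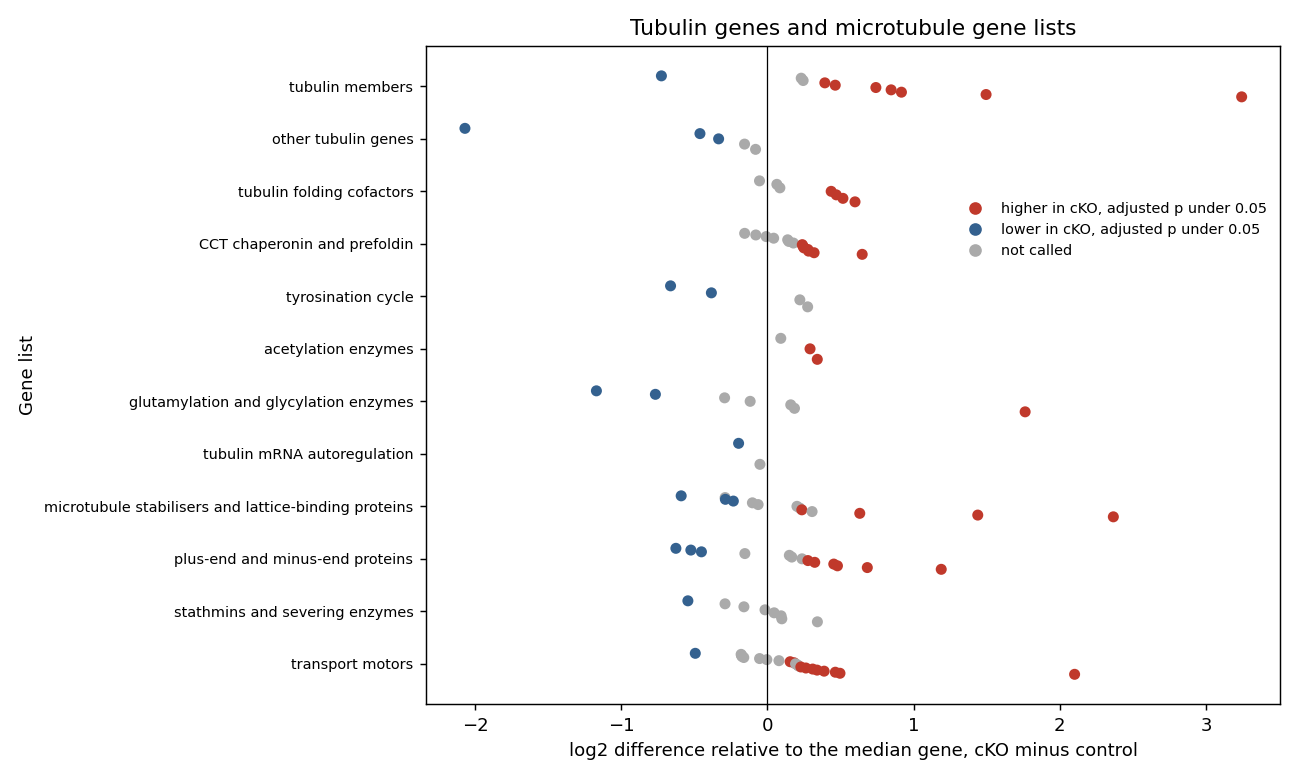
Limma log2 differences relative to the median gene, cKO minus control, of every tested gene in the tubulin and microtubule lists, with 1 point per gene coloured by its call. Tubb3 at 3.24, Map1a at 2.37 and Kif1a at 2.10 lie farthest to the right and Tuba8 at -2.07 farthest to the left.

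Proteins that bind the microtubule follow, against the same 20.8% called in each direction over all tested genes. Of 13 tested stabilisers and lattice-binding proteins of 15, 4 were called higher relative to the median gene, 3 lower and 6 not called (median 0.20). As deposited 11 were called higher and 0 lower, where 76.5% of all tested genes were called higher and 3.46% lower. Map1a, best known from neurons, stood at 10.1 to 19.4 TPM in cKO and 0.879 to 0.996 TPM in control hearts and rose by 2.37 ± 0.12 (limma adjusted p = 1.34e-07), again having passed the filter through cKO alone. Map6, which protects microtubules from cold, rose by 1.44 (7.96 against 1.26 TPM, limma adjusted p = 3.86e-07), and Map1b by 0.63 (limma adjusted p = 0.00116). Map4, the main such protein of heart muscle, rose by 0.24 ± 0.05 (142 ± 9.84 against 71.9 ± 7.27 TPM, limma adjusted p = 0.00211), and Map7 stood at -0.59 (limma adjusted p = 0.000689), not called as deposited (0.02).

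Of 13 tested genes for proteins at microtubule ends, 6 were called higher relative to the median gene, 3 lower and 4 not called (median 0.24), and 11 were called higher and 0 lower as deposited. The shares over all tested genes were 20.8% in each direction relative to the median gene, and 76.5% higher and 3.46% lower as deposited. Mapre3, the end-binding protein EB3, rose by 1.19 ± 0.10 (49.1 ± 7.99 against 12.4 ± 1.53 TPM, limma adjusted p = 3.88e-06), while Slain2, Clasp2 and Clasp1 stood at -0.45, -0.52 and -0.63 (limma adjusted p = 9.50e-05, 0.000112 and 0.000148). As deposited Slain2 was called higher (0.27, limma adjusted p = 0.0257) and Clasp2 and Clasp1 were not called (0.15 and 0.11). Of 8 tested stathmins and severing enzymes, 0 were called higher relative to the median gene (1 in limma at an unadjusted p under 0.05), 1 lower (Stmn2, not called without the 3 cKO libraries that held Xist) and 7 not called, and 7 were called higher and 0 lower as deposited. Among the latter were Spast at -0.02 (limma adjusted p = 0.865), Katnal1 at 0.34 (limma adjusted p = 0.0560), Stmn1 at -0.29 (limma adjusted p = 0.178) and Fignl1 at -0.16 (limma adjusted p = 0.439). Of 21 tested transport motors, 10 were called higher relative to the median gene, 1 lower and 10 not called (median 0.19). All 21 were called higher as deposited, as were 76.5% of all tested genes. Kif1a, a kinesin of neuronal vesicle transport, stood at 6.70 ± 1.76 TPM in cKO and 0.319 ± 0.0780 TPM in control hearts and rose by 2.10 ± 0.13 (limma adjusted p = 4.64e-07), and it too passed the filter through cKO alone. The dynein genes Dync1h1 and Dync1i2 rose by 0.50 and 0.46 (limma adjusted p = 0.000216 and 0.000808) and Kif1c stood at -0.49 (limma adjusted p = 0.000312), although it was called higher as deposited (0.23, limma adjusted p = 0.0413, lost in several other settings).

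Over all 97 tested genes of these lists, the isotypes above left out, 34 were called higher relative to the median gene, 16 lower and 47 not called, where 20.8% of all tested genes were called in each direction, with a median log2 difference of 0.15 against 0.01 over all tested genes. As deposited 85 were called higher, 2 lower and 10 not called, with a median of 0.79 against 0.63. On that scale 76.5% of all tested genes were called higher and 3.46% lower. Map1a, Kif1a and Ttll7, among those called higher on both scales, passed the filter through the cKO libraries alone and so had to differ.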

How the data were processed

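Hearts of 5 cKO and 5 control mice were measured by sequencing of total RNA. The VAHTS Universal V10 kit was used on 1 μg of RNA per library, per the labels' protocols. Sample titles gave the groups and replicate numbers. The values are TPM in 1 table, as the authors deposited them. The submitters' processing notes list build mm10 and, without saying how each was used, STAR 2.7.1, HTSeq 0.11.2, Trimmomatic 0.32, Picard 1.96, bcl2fastq, DESeq2 1.22.2 and FastQC 0.11.7. Not given in the sources used here are the annotation, the strand setting and the treatment of multi-mapping reads. TPM keeps no depth, so no counting interval could be given.

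Values were tested as log2(TPM + 1), which understates differences of low genes, for genes with at least 1 TPM in at least 5 of 10 libraries (13282 genes). Limma 3.58.1 in R 4.3.3 (mean-variance trend, two-sided) was fitted over all of them, with Benjamini-Hochberg adjustment. The fit was tested on simulated data. Size factors were median-of-ratios values over 16393 genes. Shares were compared by two-sided exact permutation tests over all 252 splits of 5 and 5, whose smallest p is 0.00794. Scipy 1.17.1, pandas 2.3.3 and numpy 2.4.6 ran under Python 3.11.15. No pair of libraries held identical values.

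The isotypes, the microtubule lists and the cell markers were chosen with earlier results of these data known. All 10 isotypes are named. From each microtubule list up to 4 tested genes with the lowest adjusted p relative to the median gene are named, plus Ttl, Vash1, Vash2, Svbp, Ttc5, Spast and Map4. Genes most like Tubb3 were the 5 with the highest correlation, with predicted gene models skipped. Of the 14 markers of neurons and Schwann cells, 2 are not reported here and were left out of their counts and sums. The gene Matcap1 of the tyrosination list was not matched by name. Alternatives varied the pseudocount, filters, variance model, a Ddx3y covariate, scaling, the sum behind a share, and the libraries. Leaving out the 3 cKO libraries with Xist was chosen after seeing the data.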

Additional observations from a re-analysis of the deposited data

Results flagged for a closer look

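In 60 groups of 5 libraries (10 genes, 2 groups, and TPM, scaled TPM or share), a library was marked when its gap to the nearest other exceeded 0.71 of the group's range. Chance marks about 1 in 20 such groups, and 4 were marked here, all relative to the median gene. Library cKO 1 was the lowest for Tuba1b, at 275 where the others lay between 368 and 385, and for Tubb4b, at 177 where the others lay between 206 and 217. Library cKO 7 was the highest for Tuba1c, at 61.2 where the others lay between 49.3 and 52.6. Library control 9 was the highest for Tubb2a, at 52.9 where the others lay between 42.4 and 44.6.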

How the results depend on the processing

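As deposited, 9 isotypes were called in every setting run. Relative to the median gene 8 were called, 8 to 10 without 1 library each (10 without cKO 1), 9 with a Ddx3y covariate (8 higher), 9 with upper-quartile scaling, 10 with TPM over genes not named mt- and 8 (8 higher, 0 lower) without the 3 cKO libraries that held Xist. In the mt- setting the median of all tested genes moved to 0.28, against which Tuba1b stood at 0.54, Tubb6 at 0.52 and Tuba4a at -0.43. The share of Tuba1b differed by -3.02 percentage points over every alpha gene and by -2.59 without the Xist libraries, both past no threshold. Merging near-identical copies gave 19.3 for Tuba1a, Tuba1b and Tuba1c and 2.15 for Tubb2a and Tubb2b. As centred log2 ratios, in which by construction the rise of Tubb3 lowers the other beta genes, Tubb2a was at -0.26, Tubb4b at -0.45 and Tubb2b at -0.78. The Tubb2b share without 1 library each ran from -0.80 to -0.48. Chmp4b as deposited ran from -0.39 to -0.23 (log2) without 1 library each and was -0.36 without the Xist libraries (exact permutation p = 0.190). In that last setting few cKO libraries were left, and even the share of Tuba1a had an exact permutation p of only 0.0476. Values near 0 that were not called changed sign without 1 library each as deposited: Tuba4a (-0.071 to 0.15), Vash1 (-0.043 to 0.13), Map7 (-0.031 to 0.058) and Agtpbp1 (-0.19 to 0.022). In the mt- setting the called Ttc5 changed sign (0.078), as did the uncalled Tubg1 (0.12), Scaper (0.20), Stmn1 (0.00040), Fignl1 (0.068) and Spast (0.26). Fignl1 was at 0.023 without the Xist libraries, and Spast was at 0.0028 with upper-quartile scaling and ran from -0.037 to 0.017 without 1 library each. The causes were not tested.

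No paired analysis was possible because the groups share only 1 replicate number. Depth is unknown, so the precision of low values such as Tubb3 in the controls cannot be given.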
